A study of Drosophila melanogaster with 18 samples.

Results

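The glutathione S-transferase (GST) genes of classes delta, epsilon, omega, sigma, theta and zeta were examined, chosen by symbol: every gene of the table whose Ensembl symbol begins with GstD, GstE, GstO, GstS, GstT or GstZ and a digit. The rule gave 35 of the 23932 features in the table, which hold 17869 genes: 11 of class D, 14 of class E, 3 of class O, 1 of class S, 4 of class T and 2 of class Z. GSTs are cytosolic enzymes that join the tripeptide glutathione to reactive or toxic molecules, among them plant compounds, insecticides and products of lipid peroxidation, so that these can be moved out of the cell. Delta and epsilon are insect-specific classes that expanded by tandem duplication and are best known for detoxification, whereas omega, sigma, theta and zeta have relatives in other animals. The stress factor cap-n-collar (cnc), held back by Keap1, is known to switch on several GST genes of the fly, and a reporter built from the GstD1 promoter is widely used to read its activity.

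By their labels the libraries came from whole flies of the genotype w1118 kept on sugar/yeast food, in 3 groups of 6: flies at day 0, flies at day 2 on vehicle, and flies at day 2 whose food held 1 µM cycloheximide (CHX), a drug that blocks elongation at the ribosome. The day 0 and vehicle flies carry the treatment label Control. The labels give neither the sex of the flies nor how many were pooled, and no label ties a replicate to its own culture, so every p-value below refers to variation among these libraries, part of which may be technical. In each group the library names of replicates 1 to 3 are written with a hyphen and those of replicates 4 to 6 without. No label explains this difference, and the 2 sets are called the hyphenated and the unhyphenated name series.

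Library totals ran from 21495631 to 38519240 counts. TMM factors, which correct library size for composition, were 0.892 to 0.916 at day 0, 0.823 to 0.929 in CHX flies and 1.24 to 1.31 in vehicle flies. Levels are in CPM, the count of a gene scaled by the TMM-corrected library size, and features with an adjusted p under 0.05 were called. Markers of flight muscle, fat body, midgut, Malpighian tubule, oenocyte, brain, eye and ovary were all detected. Summed markers of flight muscle (10 genes) were 1338 to 1937 CPM in vehicle flies against 44695 to 53051 at day 0 and 46284 to 55857 in CHX flies, and those of the ovary (13 genes) were 3285 to 12401, 205 to 365 and 90.3 to 153. Markers of testis and accessory gland did not reach the minimum level for a test (0 of 11 tested). Their sum was 0.575, 0.582 and 7.92 CPM in the 3 hyphenated day 0 libraries. It was 0.325 to 0.678 in unhyphenated day 0, 0.056 to 0.377 in vehicle and 0.357 to 0.714 in CHX libraries. Whether the vehicle samples held all body parts in the same proportion as the others was not tested.

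Most delta and epsilon genes lie in 2 clusters (positions on Ensembl release 115, BDGP6.54). The 11 GstD genes span 20.8 kb of chromosome arm 3R, from 12364776 to 12385624, with GstD10, GstD9 and GstD1 on the minus strand and the other 8 on the plus strand. A run of 10 GstE genes spans 13.2 kb of 2R, from 18396638 to 18409835, with GstE10 on the minus strand followed by GstE1 to GstE9 on the plus strand. GstE11 lies on the same arm from 18503608 to 18505025, and GstE12, GstE13 and GstE14 lie elsewhere on 2R. GstS1 is on 2R from 17093246 to 17099501. GstO3, GstO2 and GstO1 sit together on 3L between 8518885 and 8524866, GstZ1 and GstZ2 on 3R between 9455517 and 9460652, and GstT1 and GstT2 on 2R between 9605988 and 9608350, whereas GstT3 and GstT4 are on the X. Exons shared with a gene on the opposite strand are short for GstE1 and GstE10 (20 bases with each other), GstE9 (40 with imd), GstO2 (61 with se), GstE12 (33 with CG3894) and GstE13 (6 with CG18659), and cover 25.1% of the exon bases of GstT2 (223, with CG12926). No source used here says if counting was stranded, so it is not known if reads over the bases that GstT2 shares with CG12926 were told apart. How many reads the tandem copies share was not measured.

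GstS1 was the leading GST transcript per unit length at day 0 and in CHX flies and lost that place in vehicle flies. In CPM per kb of exon, GstS1 had 1657 to 2065 at day 0, GstD1 331 to 537, GstE12 214 to 257 and GstE9 105 to 131, and none of these neighbouring ranges overlapped. The next 5 were GstT4, GstE6, GstO3, GstE3 and GstO2, with medians from 77.7 down to 58.3, and the ranges of neighbours overlapped. In CHX flies the same 4 genes led in the same order, at medians of 2023, 428, 271 and 130.5 CPM per kb. In vehicle flies GstD1 led with a median of 464 and a wide range (141 to 881), followed by GstE6 (144), GstE12 (123), GstE9 (87.3) and GstE1 (61.3). GstS1 ranked 8 there, with 49.6, and the ranges of all neighbours down to rank 12 overlapped.

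Of the GST level summed over all members (CPM per kb), GstS1 made up 51.3 to 63.5% at day 0, 2.24 to 5.29% in vehicle and 52.8 to 62.6% in CHX libraries. Class E took 16.97 to 21.5% at day 0 and 36.9 to 48.5% in vehicle flies. Class D differed between the name series of the vehicle group, with 17.5 to 28.7% in hyphenated and 43.6 to 46.8% in unhyphenated libraries, against 11.8 to 19.2% at day 0. In CHX flies class D also separated by name series, by less, with 11.7 to 12.7% in hyphenated and 14.7 to 15.9% in unhyphenated libraries. Without GstS1, the summed level of the other members was 1165 to 1697 CPM per kb at day 0. In CHX flies it was 1180.4 to 1530 in hyphenated and 1590 to 1733 in unhyphenated libraries. In the vehicle group it was 929.9 to 1077 in hyphenated and 1880.0 to 2354 in unhyphenated libraries, below and above all day 0 libraries.

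**Figure D1:**
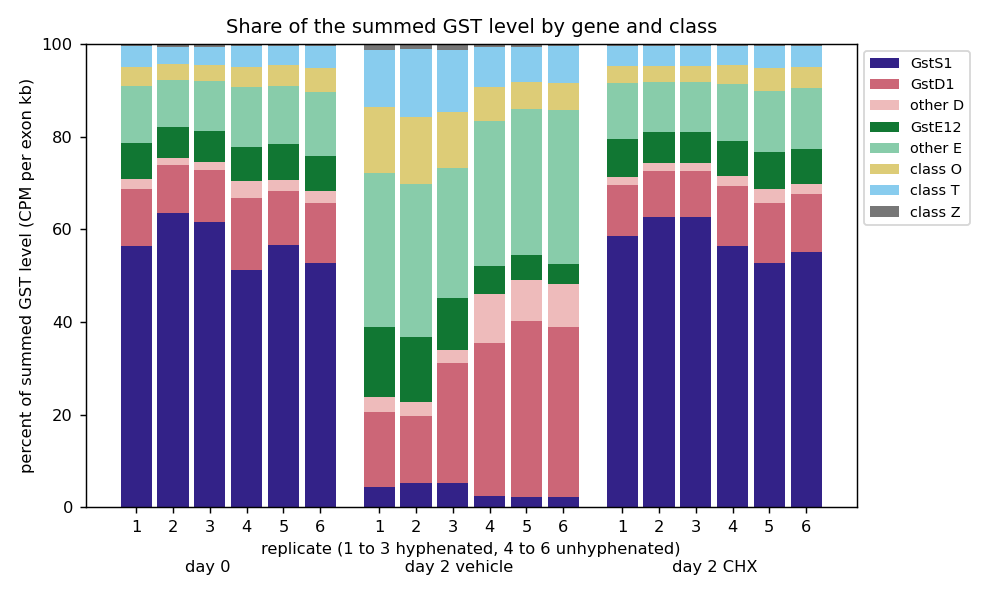
Share of the summed GST level (percent of CPM per exon kb, vertical axis) taken by each gene or class in each of the 18 libraries (bars, by group and replicate). GstS1 takes 51.3 to 63.5% at day 0 and 2.24 to 5.29% in vehicle libraries, and class D takes more in vehicle replicates 4 to 6 than in 1 to 3.

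Between day 0 and day 2 on vehicle, the question being how these transcripts changed in the first days of adult life, GST genes moved in both directions. GstS1 fell 36.4-fold, and the epsilon gene GstE14 and the delta gene GstD11 fell 6.47-fold and 5.41-fold. GstO1, GstE7 and GstE8 rose 3.45-fold, 3.00-fold and 2.73-fold. Of 34 members tested 9 rose and 17 fell, that is 26.5% and 50%, where 41.8% of all features tested were called higher and 41.1% lower. The median log2 fold change was -0.26 over the members and -0.0043 over all 11051 features. Scaled by library size alone, all features had a median of 0.49, and 13 members rose and 10 fell, so the direction of falls smaller than this shift depends on the scaling: GstE13, GstO2 and GstO3, which fell with TMM, had positive values by library size alone. Of other genes, all 6 larval fat body markers (median -10.4), 9 of 10 brain and eye markers and 7 of 9 Malpighian tubule markers tested fell, and 12 of 13 ovary markers rose. Midgut markers went both ways, with 8 of 13 higher and 2 lower, as did adult fat body (4 of 9 higher and 3 lower) and oenocyte markers (2 of 6 higher and 3 lower). Their part in the changes of GST genes was not tested. In the fit of all 18 libraries GstD6 did not reach the minimum level for a test, with 22, 88 and 14 counts in all over the day 0, vehicle and CHX libraries.

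GstS1 (FBgn0010226), the sigma enzyme, is known for its abundance in indirect flight muscle and for acting on lipid peroxidation products. Its lowest, median and highest levels were 3769, 4169 and 4698 CPM at day 0, 101, 113 and 137 in vehicle and 4413, 4603 and 4926 in CHX flies. Vehicle libraries lay far below all others, and their name series overlapped (108 to 137 and 101 to 126 CPM). The log2 fold change from day 0 to vehicle was -5.19, with a standard error of 0.089 and adjusted p = 2.00e-19 by edgeR. All 10 flight muscle markers fell in the same comparison, with a median of -4.77, and none of them differed between the name series of the vehicle group. Their part in the fall of GstS1 was not tested, and in whole flies fewer cells of a type and less RNA per cell cannot be told apart.

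Of class E, 8 of 14 genes fell, 4 rose and 2 were not called, with log2 fold changes from -2.69 to 1.59. GstE14 (FBgn0033817, 2R from 13239729 to 13241013), also called Noppera-bo and needed for ecdysone synthesis in fly development, had 10.7, 14.6 and 18.4 CPM at day 0 (lowest, median and highest) and 1.90, 2.20 and 2.91 in vehicle flies, without overlap, and the log2 fold change was -2.69, with a standard error of 0.13 and adjusted p = 5.51e-13 by edgeR. GstE12 (FBgn0027590, 2R from 24766718 to 24768172), the epsilon gene with the highest mean level, went from 299, 335 and 359 to 149, 171 and 227 CPM, again without overlap, and a log2 fold change of -0.91, with a standard error of 0.11 and adjusted p = 3.74e-07 by edgeR. The neighbours GstE6, GstE7 and GstE8 in the cluster rose. GstE6 had 37.1, 56.7 and 81.9 CPM at day 0 and 101, 108 and 129 in vehicle flies, and the log2 fold change was 0.93, with a standard error of 0.13 and adjusted p = 1.35e-06 by edgeR. Of GstE7 the groups overlapped at the edge (8.78 to 15.9 and 12.96 to 88.2 CPM), and of GstE8 they did not (7.16 to 11.7 and 13.8 to 52.1), with log2 fold changes of 1.59 and 1.45. GstE11, outside the cluster, rose by 0.83. GstE9 and GstE3 fell by 0.55 and 0.61, with overlapping groups (82.4 to 103 against 34.2 to 97.4 CPM, and 36.6 to 58.7 against 11.3 to 70.6). The call of GstE3 was lost in 8 of 18 refits that left out 1 library, with -0.63 to -0.42. GstE2, GstE4, GstE10 and GstE13 fell by 1.46, 1.68, 0.82 and 0.40. GstE1 and GstE5 were not called by edgeR, with 1.53 (adjusted p = 0.0573 by edgeR) and -0.055. GstE1 was called by DESeq2 (1.47), by limma-voom (1.59), by edgeR with library size alone (2.06) and without vehicle replicate 1, 2 or 3 (1.93 to 1.96). By library size alone GstE3 (-0.098) and GstE9 (-0.054) were not called.

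Of class D, 4 of the 10 genes tested fell and 1 rose. GstD11 (FBgn0038029) went from 2.11, 2.22 and 3.20 CPM at day 0 to 0.343, 0.400 and 0.616 in vehicle flies, and the log2 fold change was -2.44, with a standard error of 0.21 and adjusted p = 2.08e-09 by edgeR. GstD7, GstD8 and GstD10 fell by 1.50, 1.63 and 1.01, at levels of at most 13.3 CPM in any day 0 library. GstD4, at most 2.86 CPM, rose by 1.25, and this call was lost without day 0 replicate 5 (1.09) and without day 0 replicate 6 (1.01). GstD1, GstD2, GstD3, GstD5 and GstD9 were not called by edgeR. GstD3 was called by DESeq2 (0.73), by limma-voom (0.78) and by edgeR in 4 refits without 1 library (0.86 to 1.01), and GstD5 by limma-voom (2.66) and by edgeR in 4 such refits (1.55 to 1.62). By library size alone edgeR called both (1.29 and 1.85) and no longer GstD10 (-0.52), and with upper quartile factors it did not call GstD4 (1.03). Of these, GstD1 (FBgn0001149, 3R from 12367817 to 12369268), the delta enzyme known for its action on the insecticide DDT, had 279, 330.1 and 453 CPM at day 0 and 119, 391 and 742 in vehicle flies, whose range enclosed all day 0 values.

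Classes O and T moved in both directions and class Z fell in part. GstO1 (FBgn0035907), an omega enzyme, went from 10.5, 11.7 and 13.9 CPM at day 0 to 32.3, 42.1 and 53.6 in vehicle flies without overlap, and the log2 fold change was 1.79, with a standard error of 0.12 and adjusted p = 7.21e-11 by edgeR. Its neighbour GstO2 had 82.1, 102 and 116 CPM at day 0 against 61.5, 80.2 and 94.3 in vehicle flies, and GstO3 40.9, 56.2 and 72.6 against 24.4, 43.2 and 58.3. These groups overlapped, and the genes fell by 0.33 and 0.34. The call of GstO3, with an adjusted p = 0.0492 by edgeR, was lost in 14 of 18 refits without 1 library, at -0.37 to -0.25. Of the theta genes, GstT1 rose from 26.5 to 35.1 CPM at day 0 to 46.5 to 60.6 CPM in vehicle flies, and the log2 fold change was 0.86, with a standard error of 0.10 and adjusted p = 1.20e-07 by edgeR. GstT2 rose by 1.26 and GstT3 by 0.26. GstT3 had 27.1, 29.8 and 32.3 CPM at day 0 and 32.99, 35.1 and 40.5 in vehicle flies, a narrow separation. The call of GstT3 was lost with upper quartile factors (0.039) and with at least 10 counts required in every library (0.17). GstT4 fell by 0.53, from 83.1, 94.8 and 116 to 49.7, 66.3 and 95.7 CPM, with overlap, and was not called by library size alone (-0.027). Of the zeta genes, whose relatives in mammals are maleylacetoacetate isomerases of tyrosine breakdown, GstZ2 fell from 14.8, 18.9 and 20.5 to 3.53, 5.67 and 8.37 CPM without overlap, and the log2 fold change was -1.73, with a standard error of 0.18 and adjusted p = 3.63e-08 by edgeR. GstZ1 was not called (-0.047).

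**Figure D2:**
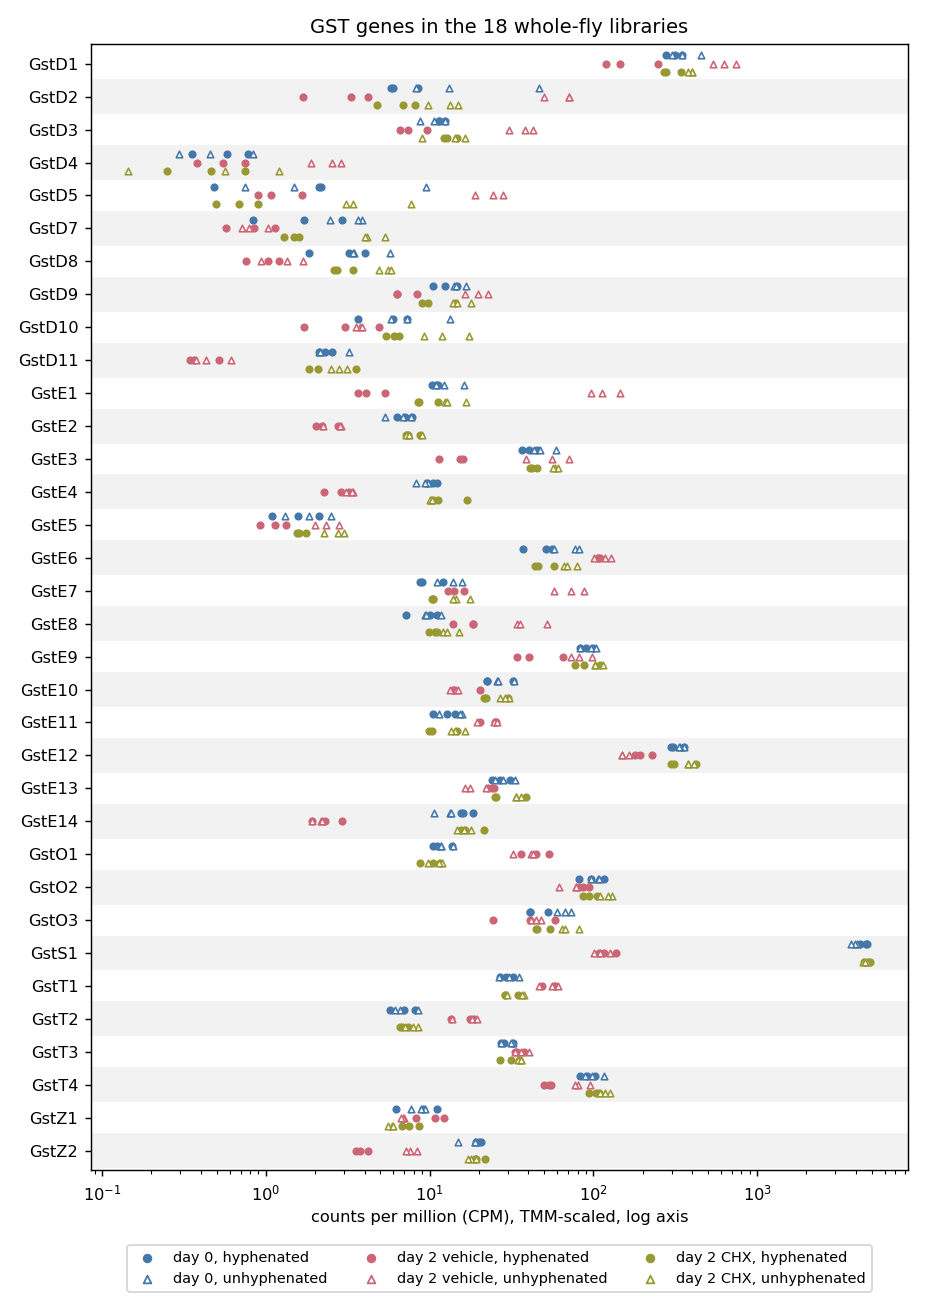
Levels of the 34 GST genes tested in all 18 libraries (CPM, TMM-scaled, log axis), by group (colour) and name series (filled circles hyphenated, open triangles unhyphenated). GstS1 lies at 101 to 137 CPM in vehicle libraries against 3769 to 4698 at day 0, and GstE1 spans 3.67 to 146 CPM in vehicle libraries, split by name series.

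Flies fed CHX were compared with vehicle flies of the same day to ask how a block of translation altered these levels. The vehicle libraries are the same as in the comparison above, so the values of both comparisons are not independent and are given side by side. Of 34 members tested 17 were higher in CHX flies and 11 lower, or 50% and 32.4%, where 42.0% of all features were called higher and 41.3% lower. The median log2 fold change was 0.38 over the members and 0.022 over all features. Scaled by library size alone, 10 members were higher and 15 lower and the median of all features was -0.53, and GstO2 and GstO3, higher with TMM, took negative values.

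GstS1 was 39.9-fold higher in CHX flies, a log2 fold change of 5.32, with a standard error of 0.089 and adjusted p = 1.64e-19 by edgeR. All 10 flight muscle markers were higher too, with a median of 4.84, and their part was not tested. GstE14 had 14.6, 16.3 and 21.4 CPM in CHX flies and a log2 fold change of 2.93 (day 0 to vehicle, -2.69), and GstD11 1.83, 2.64 and 3.54 CPM and 2.56 (-2.44). GstE12 had 299.8, 379 and 425 CPM and 1.06 (-0.91). The CHX and vehicle groups of these 4 genes did not overlap. On the lower side, GstO1 had 8.67, 10.9 and 11.9 CPM in CHX flies and -1.98, with a standard error of 0.12 and adjusted p = 1.68e-11 by edgeR, without overlap. GstD5 (0.495 to 7.67 CPM in CHX and 0.892 to 28.03 in vehicle flies) and GstE1 (8.54 to 16.6 and 3.67 to 146 CPM) had log2 fold changes of -1.83 and -1.63 with overlapping groups. The call of GstE1, with an adjusted p = 0.0409 by edgeR, was lost in 12 of 18 refits without 1 library (-1.60 to -1.29), that of GstZ1 (-0.35) in 6 (-0.35 to -0.26) and that of GstD4 (-1.20) in 3 (-1.09 to -0.93).

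By class, 4 of 10 D genes tested were higher in CHX flies and 2 lower, 8 of 14 E genes higher and 5 lower, 2 of 3 O genes higher and 1 lower, 1 of 4 T genes higher and 2 lower, and 1 Z gene each way. The higher members included GstZ2 (17.2 to 21.6 CPM in CHX flies, 1.76), GstT4 (94.2 to 127 CPM, 0.71), GstE9 (77.5 to 115 CPM, 0.65), GstE3 (40.8 to 60.8 CPM, 0.75), GstO2 (86.97 to 131 CPM, 0.43) and GstO3 (44.5 to 81.5 CPM, 0.43). The lower members included GstE6 (44.2 to 79.00 CPM, -0.92), GstE7 (10.3 to 17.7 CPM, -1.47), GstE8 (9.96 to 15.2 CPM, -1.17) and GstT1 (28.6 to 37.8 CPM, -0.74). GstT3 was not called here (26.7 to 36.4 CPM, -0.10), and neither were GstD1 (269 to 399 CPM, -0.03), GstD2, GstD3, GstD9 and GstE5 by edgeR. GstD2 was called lower by limma-voom (-1.25), GstD3 by edgeR without vehicle replicate 1 (-0.78), and GstE5 higher with upper quartile factors (0.56), which ended the calls of GstD4 (-0.97), GstE1 (-1.40) and GstZ1 (-0.11). By library size alone GstD2 (-1.47), GstD3 (-1.12), GstD9 (-0.46) and GstT3 (-0.66) were called lower, and GstE3 (0.19), GstE9 (0.086), GstE10 (0.25), GstE13 (0.036) and GstT4 (0.15) were not called.

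No GST gene was called between CHX flies at day 2 and flies at day 0. edgeR, DESeq2 and limma-voom each called 0 members, against 0.552% of all features called by edgeR, and 1 member had an unadjusted edgeR p under 0.05, GstZ1 (-0.39, adjusted p = 0.606). Log2 fold changes ran from -0.49 to 0.34 over the 34 members, with a median of 0.12 against 0.0020 over all features. The groups overlapped for all 35 members, and the share of all features whose groups overlapped was not computed. GstS1, at 3769 to 4698 and 4413 to 4926 CPM, had 0.13 (standard error 0.074), GstE12 0.15 (0.11) and GstO1 -0.19 (0.12). The standard error was larger for low members such as GstD5 (-0.49, standard error 0.67).

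Within the vehicle group the name series separated a subset of GST genes by far more than their replicates. Of 34 members 14 were lower in hyphenated than in unhyphenated libraries, 41.2%, where 3.47% of all features were called lower. On the higher side, where 2.81% of all features were called, edgeR and limma-voom called 0 members and DESeq2 called GstZ1, and GstZ1 (0.62) and GstE12 (0.37) had an unadjusted edgeR p under 0.05. edgeR called GstZ1 without day 0 replicate 1 or vehicle replicate 2 (0.62 to 0.76) and GstE12 without CHX replicate 1 (0.37). The median log2 difference was -0.21 over the members and 0.033 over all features. The 14 were GstD1 to GstD5, GstD9, GstE1, GstE3, GstE5, GstE7, GstE8, GstE9, GstT4 and GstZ2, so 6 of 10 tested in class D, 6 of 14 in class E, 0 of 3 in class O, 0 of 1 in class S, 1 of 4 in class T and 1 of 2 in class Z.

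GstE1 (FBgn0034335, 2R from 18398393 to 18399223) had 3.67, 4.08 and 5.30 CPM in the 3 hyphenated and 96.6, 113 and 146 CPM in the 3 unhyphenated vehicle libraries, a 27.2-fold difference. Day 0 libraries (10.3 to 16.1 CPM) and CHX libraries (8.54 to 16.6 CPM) lay between these series. The log2 difference between the series was -4.77, with a standard error of 0.21 and adjusted p = 3.85e-10 by edgeR. GstD2 had 1.68, 3.32 and 4.17 CPM in hyphenated against 50.04, 70.9 and 71.4 CPM in unhyphenated libraries, a log2 difference of -4.38, with a standard error of 0.55 and adjusted p = 1.16e-04 by edgeR. GstD5 had 0.892, 1.07 and 1.66 CPM in hyphenated against 18.9, 24.3 and 28.03 CPM in unhyphenated libraries, a difference of -4.29, with a standard error of 0.77 and adjusted p = 0.00242 by edgeR. Next to them, GstD3 had 6.63, 7.40 and 9.64 CPM in hyphenated against 30.6, 38.04 and 42.6 CPM in unhyphenated libraries, a difference of -2.23. In none of these did the series overlap.

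GstD1, the most abundant delta gene per unit length, had 119, 145 and 247 CPM in hyphenated and 535, 631 and 742 in unhyphenated vehicle libraries, and the log2 difference was -1.90, with a standard error of 0.22 and adjusted p = 2.94e-05 by edgeR. Its day 0 range of 279 to 453 CPM lay above all hyphenated and below all unhyphenated vehicle libraries. GstE7 had 12.96, 14.2 and 16.3 CPM in hyphenated against 57.4, 72.8 and 88.2 CPM in unhyphenated libraries, a log2 difference of -2.33. For GstE3 the values were 11.3, 15.3 and 16.1 CPM in hyphenated against 38.97, 56.2 and 70.6 CPM in unhyphenated libraries, a difference of -1.95. Of the smaller differences, GstE8 was at 13.8 to 18.3 CPM in hyphenated and 34.4 to 52.1 in unhyphenated libraries (-1.27), GstD9 at 6.31 to 8.37 and 16.4 to 22.9 (-1.49) and GstZ2 at 3.53 to 4.17 and 7.17 to 8.37 (-1.01). The series did not overlap in these genes either. GstD4 (-2.12), GstE5 (-1.06), GstE9 (-0.85) and GstT4 (-0.67) made up the rest. The call of GstD4 was lost without vehicle replicate 2, 3 or 6 (-2.11 to -1.92), that of GstE9 without the same 3 (-0.76 to -0.67) and that of GstE5 without vehicle replicate 1, 3, 4 or 6 (-1.08 to -0.93).

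Neighbouring genes of the clusters differed. In the GstE cluster, GstE10 and GstE1 lie head to head, and GstE10 had 13.96, 14.2 and 20.4 CPM in hyphenated and 13.2, 14.5 and 14.9 in unhyphenated libraries, a log2 difference of 0.19 (adjusted p = 0.706 by edgeR). GstE2, GstE4 and GstE6, which lie between called genes, had -0.18, -0.23 and -0.10, and GstE6 was at 107 to 109 and 101 to 129 CPM. In the GstD cluster the genes from GstD9 to GstD5 were called and formed a run of 6, GstD6 beside it was not tested, and GstD10 (-0.20), GstD7 (-0.0053), GstD8 (-0.42) and GstD11 (-0.22) on either side were not. Outside the clusters, GstZ2 and GstT4 were called between the series, whereas GstS1 had 0.11 (standard error 0.11), GstO1 0.21 (0.16), GstE14 0.17 (0.19), GstT2 -0.045 (0.18) and GstT1 0.0076 (0.14), none of them called.

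**Figure D3:**
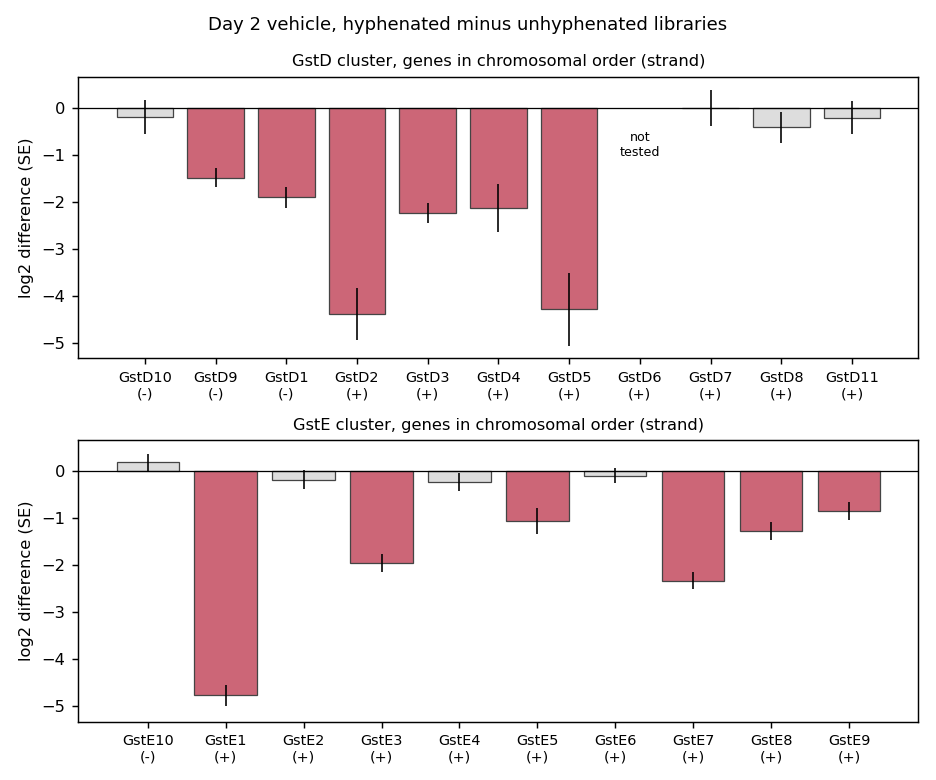
Log2 difference between hyphenated and unhyphenated vehicle libraries (bars, with the standard error) for the genes of the GstD and GstE clusters in chromosomal order, red where called and grey where not. The bars of GstE1 (-4.77), GstE3, GstE5 and GstE7 alternate with small bars of GstE2, GstE4 and GstE6, and GstD9 to GstD5 form an unbroken run.

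The same name series at day 0 and in CHX flies gave no called GST gene with edgeR. At day 0, 0.489% of all features were called, 6 members had an unadjusted p under 0.05, DESeq2 called 1 (GstE6, lower in hyphenated libraries) and limma-voom 0. In CHX flies 0.299% of all features were called, 12 members had an unadjusted p under 0.05, DESeq2 called 2 (GstD5 and GstD7) and limma-voom 1 (GstD7), all lower in hyphenated libraries. The share of all features with an unadjusted p under 0.05 was not computed for either group. Without CHX replicate 1 edgeR called 3 there, GstD7, GstD9 and GstE6, and it called GstD7 without day 0 replicate 1 or 2 and GstD5 without day 0 replicate 4. GstE1 had 8.54, 8.63 and 11.3 CPM in hyphenated and 12.4, 12.7 and 16.6 in unhyphenated CHX libraries, and GstD2 4.75 to 8.11 against 9.74 to 14.9 CPM. The series of these genes did not overlap there either. At day 0, GstE1 had 10.3, 10.97 and 11.2 CPM in hyphenated against 10.9, 12.3 and 16.1 CPM in unhyphenated libraries, which overlapped.

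The change from day 0 to vehicle was therefore fitted within each series, and the difference between the series was tested as an interaction. With hyphenated libraries alone, GstE1 fell by 1.31 and with unhyphenated libraries alone it rose by 3.18, and GstD1 had -0.88 and 0.79. GstD3 had -0.57 and 1.80, and GstD9 -0.83 and 0.38. These 4 genes were called in both series with opposite signs, whereas 17 were called in both with the same sign, 7 of them higher and 10 lower, among them GstS1, GstE14, GstO1, GstT1 and GstT2. Of all features tested in both series, 0.660% were called with opposite signs, 34.6% were higher in both and 33.1% lower in both. In the test of the difference (hyphenated minus unhyphenated) 8 members, or 23.5%, were lower and none higher, where 1.88% of all features were lower and 1.53% higher. DESeq2 and limma-voom called 0 higher too, and GstE6 (0.48), GstE12 (0.46) and GstZ1 (0.59) had an unadjusted edgeR p under 0.05 on that side. GstE1 had a difference of -4.50, with a standard error of 0.28 and adjusted p = 6.62e-08 by edgeR. The others were GstD3 (-2.38), GstE7 (-1.88), GstD1 (-1.68, adjusted p = 0.00421 by edgeR), GstE3 (-1.67), GstD9 (-1.21), GstZ2 (-1.20) and GstE8 (-1.16). GstE7 and GstE8 rose in both series, by 0.54 and 2.42 and by 0.84 and 2.00, and GstZ2 fell in both (-2.38 and -1.18). GstE3 fell by 1.51 in hyphenated libraries and had 0.15 (not called) in unhyphenated libraries. The interaction calls of GstD9 and GstE8 were lost without day 0 replicate 6 (-1.19 and -1.11), that of GstD9 also without vehicle replicate 2 (-1.15) and that of GstE8 also without day 0 replicate 3 (-1.11). Without 1 library GstD2 (day 0 replicate 4 or vehicle replicate 1, -3.72 to -2.92), GstD5 (day 0 replicate 4, -4.76) and GstE9 (vehicle replicate 1, -1.10) were called too. DESeq2 also called GstD2 (-2.66) and GstT4 (-0.57), and limma-voom GstD2 (-3.13). The median over the members was -0.17 and over all features 0.041.

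**Figure D4:**
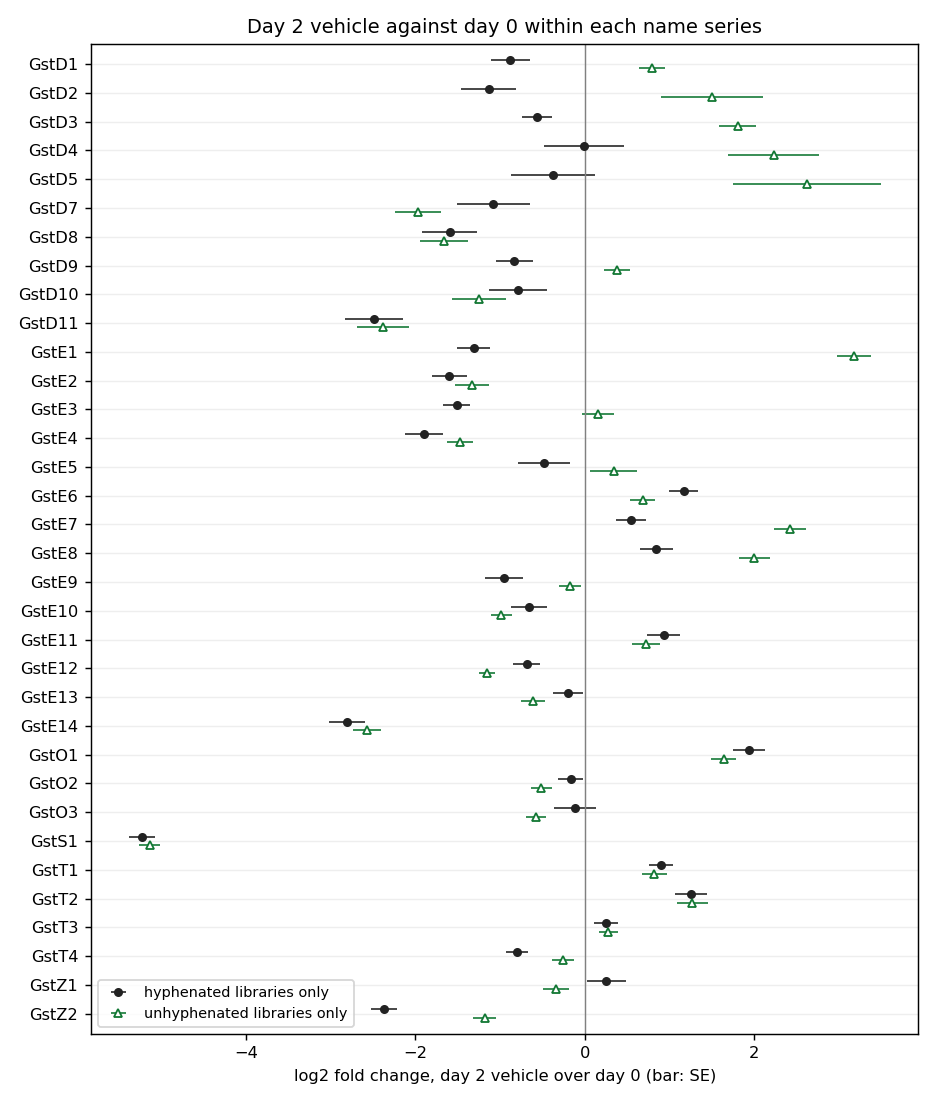
Log2 fold change from day 0 to day 2 vehicle for each of the 34 GST genes tested over all libraries. Fits used hyphenated libraries (filled circles) or unhyphenated libraries (open triangles) alone, with standard errors. GstE1 has -1.31 and 3.18 and GstD1 -0.88 and 0.79, on opposite sides of 0, and GstS1 has -5.23 and -5.14.

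The difference of CHX from vehicle, which shares the vehicle libraries with these tests, depended on the series for 7 members, 20.6%, all with a more positive value in hyphenated libraries, where 1.60% of all features were called higher and 1.96% lower. They were GstE1 (4.21), GstD2 (3.44), GstD3 (2.23), GstE7 (1.78), GstE3 (1.50), GstD1 (1.50, adjusted p = 0.00893 by edgeR) and GstZ2 (1.14). GstE1 was higher in CHX than in vehicle flies by 1.11 within the hyphenated series and had -3.10 within the unhyphenated series, and GstD1 had 0.80 and -0.70. GstD2 had 1.10 and -2.34. DESeq2 called GstD9 (1.03) and GstE8 (0.99) higher as well, as did edgeR with RLE factors, with library size alone and with at least 10 counts required in every library. On the lower side edgeR, DESeq2 and limma-voom called 0 members, and GstD7, GstE12, GstE13 and GstO2 had an unadjusted edgeR p under 0.05. Without CHX replicate 1, edgeR called 3 members lower in this test (GstE12, GstE13 and GstO2), and without day 0 replicate 2 it called 1 (GstD7). The median over the members was -0.012 and over all features -0.025.

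Other measures moved with the name series of the vehicle group. Summed adult fat body markers (9 genes) were 17877 to 30726 CPM in hyphenated and 10370.5 to 16589 in unhyphenated libraries, with 3 genes called higher and 2 lower, and ovary markers (13 genes, 1 called higher) were 5406 to 12401 and 3285 to 5384 CPM. Midgut markers (15 genes, 2 called higher and 2 lower) were 5666 to 13470.5 and 4862 to 6289 CPM and overlapped, as did Malpighian tubule markers (10 genes, 1 called higher), at 150.4 to 223 and 177 to 271 CPM, and oenocyte markers (6 genes, 1 called lower), at 4769 to 7329 and 6916 to 8523 CPM. TMM factors were 1.24 to 1.25 in hyphenated and 1.30 to 1.31 in unhyphenated vehicle libraries. The part of these measures in the GST differences was not tested. The number of members called lower was 14 under TMM, RLE, upper quartile and library-size scaling.

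Genes that supply or use glutathione outside the GST rule were taken from a list of 15, of which 13 matched a gene and 10 were tested. From day 0 to vehicle 5 rose and 3 fell, where 41.8% of all features rose and 41.1% fell, with a median of 0.066. From vehicle to CHX 3 were higher and 5 lower, beside 42.0% and 41.3% of all features. Ggt-1, a gamma-glutamyl transpeptidase that breaks down extracellular glutathione, was at 40.3 to 57.4 CPM at day 0 and 210.2 to 285 CPM in vehicle flies and rose by 2.37 on the log2 scale. Gclc and Gclm, the catalytic and modifier subunits of the enzyme that limits glutathione synthesis, were at 76.5 to 94.9 and 104 to 128 CPM at day 0 and at 91.8 to 205 and 137 to 209 CPM in vehicle flies. They rose by 0.58 and 0.52, and Trxr1, a thioredoxin reductase that recycles glutathione in flies, by 0.69. Grx1, a glutaredoxin, fell by 0.69. The omega GST gene se (sepia), an enzyme of red eye pigment synthesis that overlaps GstO2 on the other strand, went from 11.5, 21.8 and 31.2 CPM at day 0 to 1.06, 1.29 and 1.81 in vehicle flies and 15.2, 23.4 and 34.1 in CHX flies, a fall of 3.92 on the log2 scale from day 0 to vehicle (adjusted p = 7.87e-13 by edgeR). At day 0 se was at 26.6 to 31.2 CPM in hyphenated and 11.5 to 17.1 in unhyphenated libraries. In CHX flies these were 24.96 to 34.1 and 15.2 to 21.8 CPM, whereas the series overlapped in vehicle flies. From day 0 to vehicle 9 of 10 brain and eye markers fell, with a median of -1.82, but the eye genes among them moved unevenly. Medians at day 0 and in vehicle flies were 967 and 948 CPM for ninaE, 201 and 149 for norpA, and 39.7 and 30.2 for Rh4. They were 99.7 and 45.7 CPM for Rh3, 428 and 74.8 for ninaC, and 102 and 9.47 for Pdh. The part of these markers in the fall of se was not tested.

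Of 12 cap-n-collar pathway genes listed, 11 matched and 9 were tested, 7 of which rose from day 0 to vehicle and 1 fell, beside 41.8% and 41.1% of all features. In CHX against vehicle flies 1 was higher and 6 lower, beside 42.0% and 41.3% of all features. The transcription factor gene cnc had 212 to 290.3 CPM at day 0 and 277 to 352 in vehicle flies, its inhibitor Keap1 13.7 to 19.2 and 18.03 to 21.9 and its partner maf-S 35.9 to 47.8 and 41.4 to 53.9. Their log2 fold changes of 0.29, 0.33 and 0.22 were called but are small. The median of all features moved up to 0.49 by library size alone and down to -0.22 with upper quartile factors, so the size of these rises depends on the scaling. Between the name series of the vehicle group cnc (-0.28), Keap1 (-0.092), maf-S (-0.15) and Gclm (-0.20) were not called. Gclc (91.8 to 104 CPM hyphenated and 144 to 205 unhyphenated, -0.74), Trxr1 (396 to 428 and 483 to 597 CPM, -0.39) and ref(2)P, the fly p62 adaptor of autophagy (342 to 366 and 633 to 737 CPM, -0.97), were lower in hyphenated libraries, as was Mrp4, an ABC transporter of the multidrug resistance family (9.91 to 19.4 and 37.8 to 53.7 CPM, -1.66). Of the 9 cap-n-collar genes tested 3 were called lower and 0 higher, and of the 10 glutathione genes tested also 3 and 0. Gclc and Trxr1 are in both lists. Of all features 3.47% were called lower and 2.81% higher. At day 0, ref(2)P was also called lower in hyphenated libraries (251 to 283 against 382 to 478 CPM, -0.68).

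**Figure D5:**
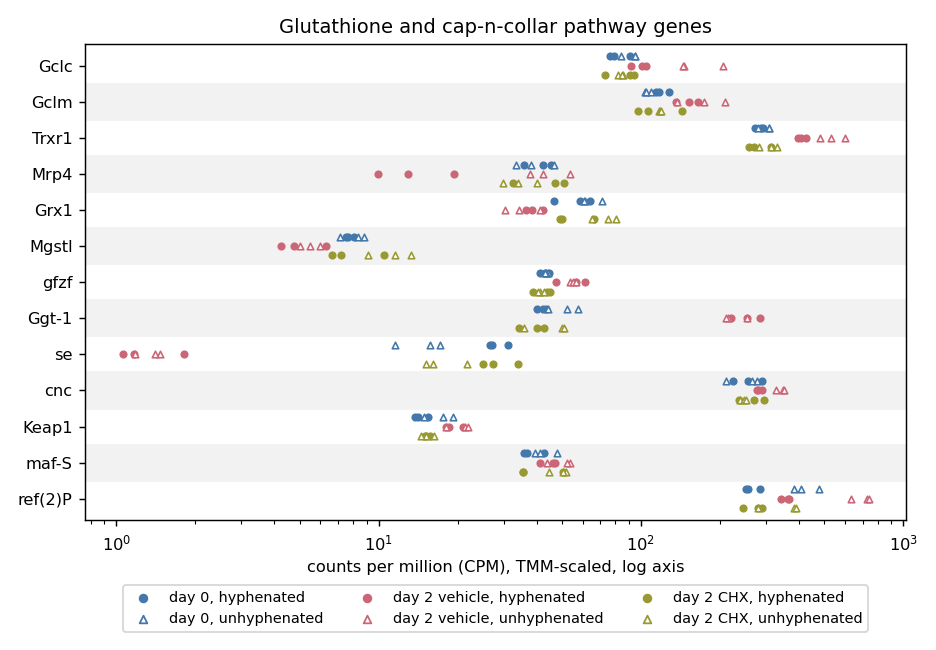
Levels of glutathione and cap-n-collar pathway genes in all 18 libraries (CPM, TMM-scaled, log axis), by group (colour) and name series (filled circles hyphenated, open triangles unhyphenated). Mrp4 lies at 9.91 to 19.4 CPM in hyphenated and 37.8 to 53.7 in unhyphenated vehicle libraries, and se at 1.06 to 1.81 CPM in vehicle libraries.

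Of 9 other regulators of detoxification genes, 6 rose and 3 fell from day 0 to vehicle (41.8% and 41.1% of all features). In CHX against vehicle flies 3 were higher and 6 lower (42.0% and 41.3% of all features). Hsf, the heat shock factor, had a log2 fold change of 1.67 (38.1 to 42.5 CPM at day 0 and 106 to 156 in vehicle flies), ss, the bHLH-PAS factor spineless, -1.72, usp, the partner of the ecdysone receptor, 1.17, Hr96, a nuclear receptor of xenobiotic responses, 1.14, and tgo, the bHLH-PAS partner tango, 1.04. None of the 9 was called between the name series of the vehicle group, where Hr96 had 0.05 and Hsf 0.032.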

How the data were processed

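Whole-fly RNA was sequenced in 18 libraries, and groups, replicate numbers and name series were taken from their labels. Values are the read counts of each feature as the authors deposited them, without normalization. Every library has 1 column, and 0 sample columns were unused. HTSeq 0.12.3, STAR 2.7.10a and bcl2fastq 2.18.0.12 and the build BDGP6 are named in the submitters' processing notes. Their settings, the annotation and the strand setting were not given in the sources used here. Rows that name no gene (8.46% to 11.6% of a column) were left out. Gene names and positions come from Ensembl release 115.

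The tests used edgeR 4.0.16 (R 4.3.3), with filterByExpr, TMM factors and a robust quasi-likelihood fit of group and name series, or of each group and series together where series were compared, over the 18 libraries. Changes within 1 name series came from fits of the libraries of that series alone, each with its own filter, TMM factors and adjustment. In both of these fits 10911 features were tested. P-values were adjusted by Benjamini-Hochberg over the features tested, 11051 in the fits of all 18 libraries, with a threshold of 0.05. Standard errors are the size of the log2 fold change divided by the root of F. Alternatives were RLE, upper quartile and library-size scaling, DESeq2 1.42.0, limma-voom (limma 3.58.1), other low-count filters, the 20 most abundant genes left out, other covariates, each name series alone and each library left out in turn. The scripts were tested on simulated data. No libraries were duplicates by a chi-square test of their counts (at least 11.3 per degree of freedom within groups).

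Values by group are given for the 12 members with the highest mean CPM, the 3 highest and 3 lowest fold changes among called members of each comparison and members that differed between name series, with up to 5 called genes of each pathway list. Other genes named give counts of 5 or fewer, complete a class or neighbour these, and were chosen after their values were seen. The members and lists were chosen with earlier results of these data known.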

Additional observations from a re-analysis of the deposited data

Results flagged for a closer look

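Within groups of 6 libraries, the highest or lowest library stood apart from the rest by a gap of more than 0.625 of the range in 6 of the 102 combinations of gene and group, where chance flags about 1 in 20. At day 0, replicate 4 was the highest library for GstD2 (46.6 CPM, the next at 13.1), GstD5 (9.54 CPM, the next at 2.17) and GstE1 (16.1 CPM, the next at 12.3). Replicate 6 was the lowest day 0 library for GstZ2 (14.8 CPM, the next at 18.8). Replicate 1 was the highest vehicle library for GstE10 (20.4 CPM, the next at 14.9) and replicate 1 the highest CHX library for GstE4 (16.9 CPM, the next at 11.3).

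The change from day 0 to vehicle differed between the name series, hyphenated minus unhyphenated on the log2 scale, for GstD1 (-1.68), GstD3 (-2.38), GstD9 (-1.21), GstE1 (-4.50), GstE3 (-1.67), GstE7 (-1.88), GstE8 (-1.16) and GstZ2 (-1.20). The difference of CHX from vehicle differed between the series for GstD1 (1.50), GstD2 (3.44), GstD3 (2.23), GstE1 (4.21), GstE3 (1.50), GstE7 (1.78) and GstZ2 (1.14). Without day 0 replicate 4, GstD2 (-3.72) and GstD5 (-4.76) were also called in the first of these tests. These tests share the vehicle libraries, and with 3 libraries per group and series what the name series mark was not tested.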

How the results depend on the processing

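Over all members, comparisons and settings, 7375 of the values kept direction and side of the threshold, 103 lost the call, 78 gained one and 18 reversed. With library sizes only, 10 members fell from day 0 to vehicle and 10 were higher in CHX than in vehicle flies, and signs turned from day 0 to vehicle for GstE13 (0.092), GstO2 (0.16), GstO3 (0.15) and GstZ1 (0.44) and from vehicle to CHX for GstD9 (-0.46), GstO2 (-0.12) and GstO3 (-0.12). With hyphenated libraries only, 7 members were lower in CHX than in vehicle flies, and GstD1 (-0.88), GstD2 (-1.14), GstD3 (-0.57), GstD4 (-0.014) and GstE1 (-1.31) turned from day 0 to vehicle and GstD1 (0.80), GstD2 (1.10), GstD3 (0.74) and GstE1 (1.11) from vehicle to CHX. With unhyphenated libraries only, 14 of 35 members tested rose from day 0 to vehicle, and GstD9 (0.38) and GstE3 (0.15) turned. Between name series, DESeq2 called 1 member higher in vehicle, 1 lower at day 0 and 2 lower in CHX flies, and limma-voom 1 lower in CHX flies. The cause was not tested.

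With each library left out in turn, 8 to 12 members rose and 15 to 17 fell from day 0 to vehicle, 17 were higher and 8 to 11 lower in CHX than in vehicle flies, and 0 differed between CHX flies and day 0. Between name series, 0 to 1 were higher and 11 to 14 lower in vehicle, 0 at day 0 and 0 to 3 lower in CHX flies. The age effect differed between series for 6 to 10, and the CHX effect was higher for 7 to 9 and lower for 0 to 3. Of 18 correlations between same-numbered libraries, 6 were above 0.1. Those between day 0 and CHX flies ran from -0.11 to 0.54. These values do not decide if the replicate numbers pair the samples. With the replicate block 9 members rose and 16 fell from day 0 to vehicle, without the call of GstE3. In CHX against vehicle flies 17 were higher and 9 lower with this block, without the calls of GstE1 and GstZ1. Without a term for the name series, GstD3, GstD5 and GstE1 gained and GstE3 and GstO3 lost the call from day 0 to vehicle, and GstE3 and GstZ1 lost it from vehicle to CHX, as did GstE1 (-1.06) with the compared groups fitted alone. GstD6 was too low to test in the main fits over all 18 libraries, but it passed the filter in the fits of unhyphenated libraries alone. Reads that the tandem copies may share limit their values.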
